A study of Mus musculus with 6 samples.

Results

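The 10 genes described here encode the core and naive pluripotency transcription factors of mouse embryonic stem (ES) cells: Pou5f1, Sox2, Nanog, Esrrb, Klf2, Klf4, Klf5, Tbx3, Nr0b1 and Zfp42. They were taken by gene symbol from the array annotation with every probe that carries the symbol, which gave 15 probes of 41174 non-control probes and 10 of 27962 gene names. Of these genes, 5 had 1 probe and 5 had 2 probes. The first group of arrays came from mouse ES cells given an siRNA against BRG1 for 48 h (3 arrays), and the other from the same kind of cells given a scrambled siRNA for 48 h (3 arrays, called control below). All cells were of an F1 background of the 129 and C57BL/6 strains, and the culture medium is not given in the labels. Levels are log2 of the processed spot signal relative to the 75th percentile of the same array, so a value of 0 is that percentile, and values of different probes cannot be set against each other. Whether the 3 arrays of a group stand for 3 cultures is not stated, so the p-values below reflect array-to-array spread that may be only technical.

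Oct4, the product of Pou5f1, and Sox2 bind DNA together at composite sites next to genes active in ES cells, and with Nanog they form the core of a network in which the factors also bind each other's regulatory regions. Around this core, Esrrb, the Krüppel-like factors Klf2, Klf4 and Klf5, Tbx3 and Nr0b1 (Dax1) form the naive circuit, which holds ES cells in the state of the inner cell mass, and Zfp42 (Rex1) is its usual marker. BRG1, encoded by Smarca4, is the ATPase of SWI/SNF complexes, which slide and evict nucleosomes, and in ES cells it is known to bind many of the sites that Oct4, Sox2 and Nanog bind. The level of Oct4 is known to matter in both directions, since raised and lowered amounts each lead ES cells out of self-renewal.

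The stretches of DNA before the start sites of 3 of the genes are shown because the 3 changed past the threshold, and because Nanog holds the composite element that the first 2 factors of the core read. Sequences are from RefSeq on build GRCm38.p6, 250 bases before the start site, 5′ to 3′ in the direction of transcription, and 8 of the 10 genes were matched in that table (all but Klf5 and Tbx3).
Nanog promoter, chr6:122707239-122707488, + strand, capitals mark the octamer and SOX letters of the composite element: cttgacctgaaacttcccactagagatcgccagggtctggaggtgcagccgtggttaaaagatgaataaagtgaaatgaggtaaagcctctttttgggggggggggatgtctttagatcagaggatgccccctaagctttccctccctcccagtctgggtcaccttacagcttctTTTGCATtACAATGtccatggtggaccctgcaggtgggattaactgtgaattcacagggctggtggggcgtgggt
Pou5f1 promoter, chr17:35505782-35506031, + strand, capitals mark a GC box and a nuclear receptor half-site: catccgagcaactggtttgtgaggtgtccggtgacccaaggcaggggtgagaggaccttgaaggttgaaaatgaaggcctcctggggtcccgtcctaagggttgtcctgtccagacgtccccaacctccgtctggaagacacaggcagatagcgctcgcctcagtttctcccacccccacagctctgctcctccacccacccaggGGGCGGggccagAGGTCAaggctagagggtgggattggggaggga
Klf4 promoter, chr4:55532476-55532725, - strand, capitals mark GC boxes: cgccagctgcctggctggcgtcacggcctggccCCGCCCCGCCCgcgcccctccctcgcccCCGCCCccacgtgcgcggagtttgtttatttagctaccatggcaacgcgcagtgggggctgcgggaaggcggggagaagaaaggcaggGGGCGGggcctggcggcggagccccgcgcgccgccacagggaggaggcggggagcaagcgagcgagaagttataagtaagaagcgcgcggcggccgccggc
The composite letters TTTGCATNACAATG lay 75 bases before the start site in Nanog, at chr6:122707414-122707427. Among 32851 promoters of the same length, 2 held these letters on either strand (0.00609%), and both are entries for Nanog with different start sites. Their parts are an octamer core (ATGCAAA, here on the opposite strand) and a SOX core (ACAATG), which were each counted on their own as well. The octamer core was in 4.12% of promoters and the SOX core in 10.7%.

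The octamer core also stood before Sox2 and Zfp42, and these stretches are shown to compare it with Nanog.
Sox2, chr3:34649876-34649922, + strand, capitals mark the octamer core: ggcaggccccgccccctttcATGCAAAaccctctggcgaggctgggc
Zfp42, chr8:43307168-43307214, - strand, capitals mark the octamer core on the opposite strand: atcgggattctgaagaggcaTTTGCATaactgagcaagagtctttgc
The octamer lay 99 bases before the start site of Sox2 and 185 bases before that of Zfp42. Pou5f1 held a GC box (GGGCGG, known to be bound by SP and KLF proteins) 45 bases and a nuclear receptor half-site (AGGTCA) 33 bases before its start site. GC boxes were in 5 of the 8 matched genes (Klf2, Klf4, Pou5f1, Sox2 and Zfp42) and in 32.7% of all promoters; half-sites were in 4 of 8 (Nanog, Nr0b1, Pou5f1 and Sox2) and in 14.0%. Neighbouring GC boxes can overlap, as they do before Klf4. A match describes letters in the window and is neither a bound site nor a cause.

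On the arrays, Nanog and Klf4 rose and Pou5f1 fell after BRG1 siRNA, to 1.33 and 1.27 times and to 79.8% of the control level, while the other 7 factors did not pass the test. Calls are at an adjusted p under 0.05 from limma, fitted over 26261 tested probes and adjusted over all of them with Benjamini-Hochberg; of the 15 probes, 14 were tested, 2 were raised, 1 was lowered and 11 were not called. Over all tested probes 19.6% were called (8.60% raised and 11.0% lowered). By the brightest probe of each gene, 2 of the 10 factors were raised and 1 lowered, against 9.02% and 12.2% of the 18258 genes tested (21.3% in either direction). The 3 BRG1 siRNA arrays and the 3 control arrays did not overlap for 8 of the 10 factors, 5 of them higher and 3 lower, against 43.8% of all genes; over probes, 8 of the 14 did not overlap, against 41.6% of all tested probes. The median change of the 10 factors was 0.07 on the log2 scale, and that of all genes -0.04.

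**Figure D1:**
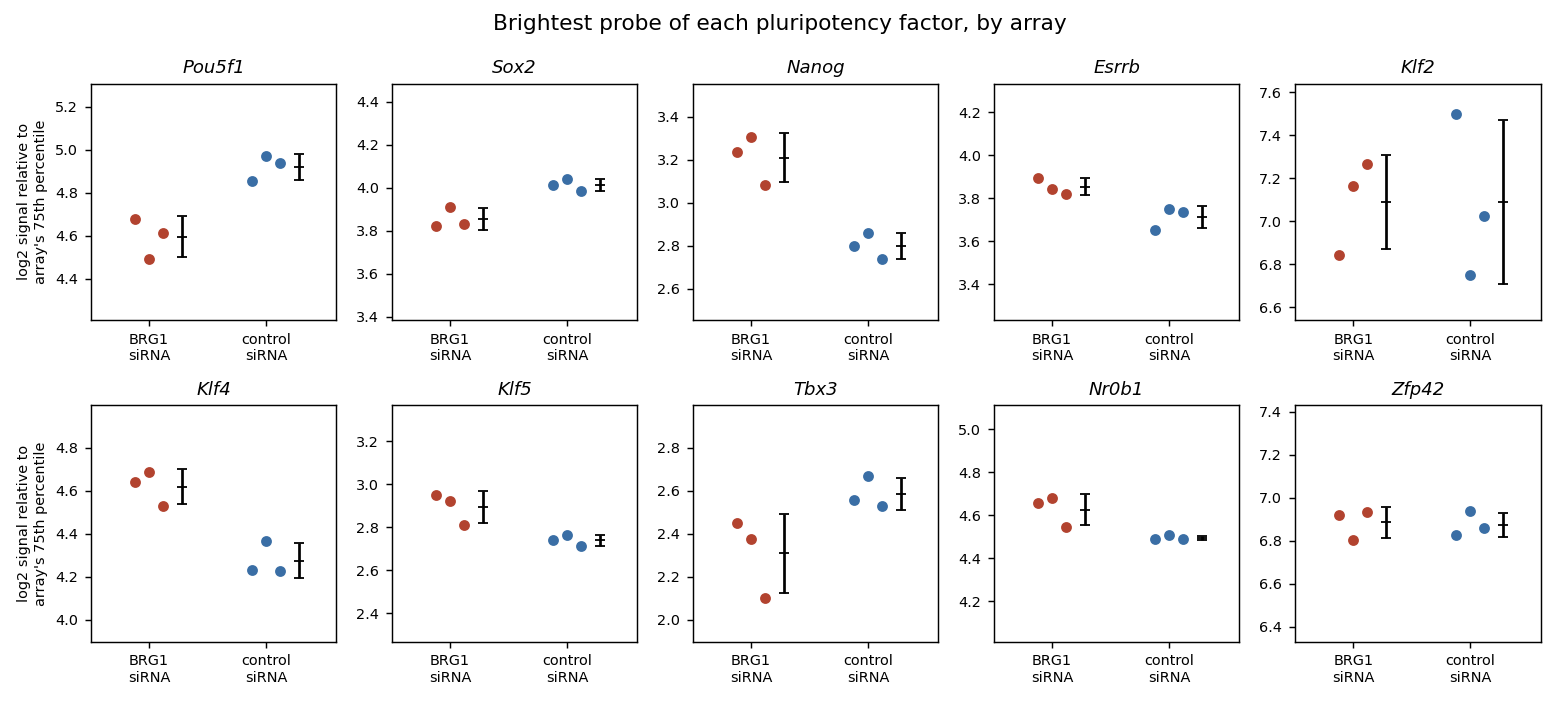
Level of the brightest probe of each of the 10 factors on each array, as log2 signal relative to the 75th percentile of that array; points are arrays (BRG1 siRNA left, control siRNA right) and bars are mean ± SD (n = 3). All panels span the same number of log2 units but start at different levels. Nanog and Klf4 sit higher in all 3 BRG1 siRNA arrays and Pou5f1 lower, while the Klf2 groups overlap widely.

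The siRNA target was checked first. The probe of Smarca4 with the highest signal read 3.76, 3.74 and 3.60 in BRG1 siRNA arrays, against 4.32, 4.36 and 4.23 in control arrays. The groups did not overlap for any of the 3 Smarca4 probes, and the changes were -0.60, -0.87 and -0.59 on the log2 scale (limma, adjusted p = 0.00456, 0.00181 and 0.00862), which leaves 65.8%, 54.7% and 66.2% of the control signal. Of the 6 arrays, the 3 control arrays and BRG1 siRNA replicate 1 shared a slide and a scan, and BRG1 siRNA replicates 2 and 3 shared the other. The second slide held no control array. With slide as a fixed block, here and below, the estimate is therefore BRG1 siRNA replicate 1 minus the 3 control arrays. It equals the estimate on the first slide alone, and BRG1 siRNA replicates 2 and 3 add only to the estimate of error. On the first slide alone, where 1 BRG1 siRNA array is assumed to vary like the controls, the Smarca4 change was -0.54 (adjusted p = 0.0720), and limma called 0 of all probes (7713 at an unadjusted p under 0.05). Between 60.9% and 70.9% of non-control spots were well above background in BRG1 siRNA arrays and between 64.8% and 75.3% in control arrays.

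Pou5f1 encodes Oct4, the POU factor without which ES cells cannot be kept. Its single probe lies at chr17:33612047-33612107 (+ strand, build mm7, as all probe positions here; the exon or UTR was not analysed here). Pou5f1 read 4.68, 4.49 and 4.61 in BRG1 siRNA arrays, against 4.85, 4.97 and 4.94 in control arrays. Every BRG1 siRNA array was below every control array. The change was -0.33 ± 0.07 (log2, SE, n = 3 each; limma, adjusted p = 0.0241), a level of 79.8% of control, and the 95% interval ran from -0.49 to -0.16. The call was lost without BRG1 siRNA replicate 2 (-0.27, adjusted p = 0.0643), without control replicate 2 (-0.30, adjusted p = 0.0780) and without control replicate 3 (-0.32, adjusted p = 0.0972), and on the first slide alone the change was -0.24 (adjusted p = 0.151).
Its probe covers 61 genomic positions with 60 bases, and is shown because Pou5f1 is known to have processed copies elsewhere in the genome, whose part in the signal was not tested.
Pou5f1 probe, chr17:33612047-33612107, + strand, mm7: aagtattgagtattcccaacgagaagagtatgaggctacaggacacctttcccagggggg

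Sox2, the HMG-box partner of Oct4, has its probe at chr3:34459231-34459290. Sox2 read 3.82, 3.91 and 3.83 in BRG1 siRNA arrays, against 4.02, 4.04 and 3.99 in control arrays. These groups were also apart, with BRG1 siRNA lower. The change of -0.16 ± 0.05 (log2, SE) did not pass the test (limma, adjusted p = 0.0630). Of 23 other ways of processing the arrays, Sox2 kept its sign in 22 and was called lowered in 3. The sign turned under scaling to the spike-in probes (0.03, adjusted p = 0.744).

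Nanog is the homeodomain factor of the core and fluctuates between ES cells of a culture. Nanog (probe at chr6:122750894-122750953) read 3.24, 3.31 and 3.08 in BRG1 siRNA arrays, against 2.80, 2.86 and 2.74 in control arrays. All BRG1 siRNA arrays lay above all control arrays, so Nanog stood opposite to Pou5f1 on the same arrays. The rise was 0.41 ± 0.07 (log2, SE, n = 3 each; limma, adjusted p = 0.0163), 1.33-fold, with a 95% interval of 0.23 to 0.59. The call was lost without BRG1 siRNA replicate 1 (0.40, adjusted p = 0.0603) or 2 (0.36, adjusted p = 0.0539), without control replicate 1 (0.41, adjusted p = 0.0520) or 3 (0.38, adjusted p = 0.0734), and on the first slide alone (0.44, adjusted p = 0.0781). In bulk RNA, a change in the number of cells that express a gene and a change in its RNA per cell cannot be told apart, for Nanog or any other gene here.

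Of the 3 Krüppel-like factors, zinc finger proteins that bind GC-rich sites and can stand in for each other in ES cells, Klf4 rose. Klf4 (probe at chr4:55541780-55541839, - strand) read 4.64, 4.69 and 4.53 in BRG1 siRNA arrays, against 4.23, 4.37 and 4.23 in control arrays. No BRG1 siRNA array came down to the highest control array. The rise was 0.34 ± 0.07 (log2, SE, n = 3 each; limma, adjusted p = 0.0213), 1.27-fold. As for Nanog, it was no longer called without BRG1 siRNA replicate 1 (0.33, adjusted p = 0.0720) or 2 (0.31, adjusted p = 0.0741) or control replicate 1 (0.32, adjusted p = 0.0673) or 3 (0.32, adjusted p = 0.0906), or on the first slide alone (0.37, adjusted p = 0.106).

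Klf5, which is needed for the inner cell mass, has a bright probe whose 60 bases are spread over a span of 9733 positions of chromosome 14. Klf5 read 2.95, 2.92 and 2.81 in BRG1 siRNA arrays, against 2.74, 2.76 and 2.71 in control arrays. The groups were apart, but the change of 0.16 ± 0.05 (log2, SE) did not pass the test (limma, adjusted p = 0.0927). Its second probe starts 1481 positions further on, inside the span of the first, and changed by -0.06 ± 0.06 (adjusted p = 0.536). The bright probe is shown because its bases are split over that span while the second lies within it; the capitals mark letters that code for the short linker shared by many zinc finger proteins.
Klf5 probe, chr14:93704580-93714312, + strand, mm7: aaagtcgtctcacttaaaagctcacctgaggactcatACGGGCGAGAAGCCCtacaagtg

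Klf2 is the Krüppel-like factor most closely tied to the naive state. Its brighter probe read 6.84, 7.16 and 7.26 in BRG1 siRNA arrays, against 7.50, 6.75 and 7.03 in control arrays. The groups overlapped, and this probe had the widest error of the 14 tested, with a change of -0.00 ± 0.21 (log2, SE; limma, adjusted p = 0.996) and a 95% interval from -0.53 to 0.53. The second Klf2 probe, 1376 bases away, read 6.08, 6.03 and 6.31 in BRG1 siRNA arrays, against 6.36, 6.22 and 6.35 in control arrays. It overlapped as well, and its change of -0.17 ± 0.09 was not called (adjusted p = 0.227). The brighter probe is 78.3% G and C and the other 43.3%; the brighter is shown with its longest run of G and C in capitals.
Klf2 probe, chr8:70842757-70842816, + strand, mm7: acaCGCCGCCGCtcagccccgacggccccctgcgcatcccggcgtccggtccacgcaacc

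Esrrb, an orphan nuclear receptor that can replace Nanog in self-renewal, was measured by 2 probes that start 6320 bases apart. The brighter Esrrb probe (chr12:84523822-84523881) read 3.90, 3.84 and 3.82 in BRG1 siRNA arrays, against 3.65, 3.75 and 3.74 in control arrays. The groups were apart, with a change of 0.14 ± 0.05 (log2, SE) that did not pass (limma, adjusted p = 0.0946). The other probe ran the other way, with -0.10 ± 0.06 (adjusted p = 0.312) and overlapping groups.

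Nr0b1 encodes Dax1, an orphan receptor that binds Oct4 protein. Nr0b1 (chrX:81582482-81582541) read 4.66, 4.68 and 4.54 in BRG1 siRNA arrays, against 4.49, 4.51 and 4.49 in control arrays. The BRG1 siRNA arrays were higher in each case, by 0.13 ± 0.05 (log2, SE), which did not pass the test (limma, adjusted p = 0.127).

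Tbx3 is a T-box factor of the naive circuit with a role in primitive endoderm as well. Tbx3 (chr5:118918450-118918509) read 2.45, 2.38 and 2.10 in BRG1 siRNA arrays, against 2.56, 2.67 and 2.53 in control arrays. The groups were apart with BRG1 siRNA lower, and the change of -0.28 ± 0.10 (log2, SE) did not pass (limma, adjusted p = 0.115). A second Tbx3 probe, 11732 bases away, was not well above background on any array and was not tested.

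Zfp42 (Rex1), the zinc finger marker of naive cells, did not differ between the groups beyond the spread. Its brighter probe read 6.92, 6.80 and 6.93 in BRG1 siRNA arrays, against 6.83, 6.94 and 6.86 in control arrays. The groups overlapped, with a change of 0.01 ± 0.06 (log2, SE; limma, adjusted p = 0.902) and a 95% interval of -0.13 to 0.15. Its second probe shares 20 positions with the first and changed by -0.02 ± 0.04 (adjusted p = 0.761).

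**Figure D2:**
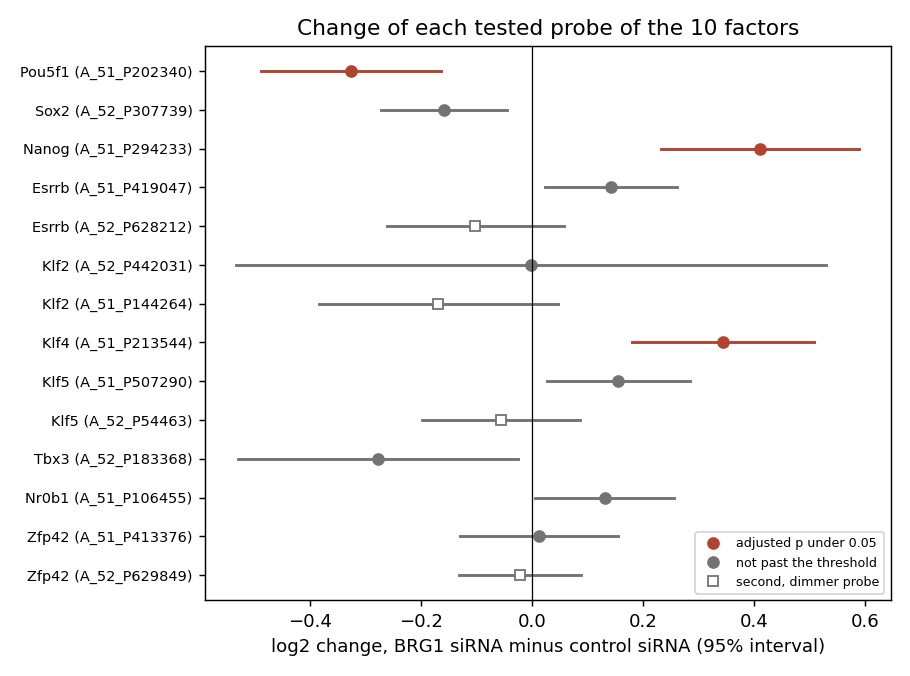
Change of each of the 14 tested probes, BRG1 siRNA minus control siRNA, in log2 units, with the 95% interval from limma (3 arrays per group); squares are second, dimmer probes. The 3 called probes belong to Nanog (0.41), Klf4 (0.34) and Pou5f1 (-0.33), and the interval of the brighter Klf2 probe is the widest.

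The ratio of each factor to Pou5f1 on the same array does not depend on how arrays are scaled. Since the probes differ, only the change of a ratio between the groups is given. All 9 ratios were higher in BRG1 siRNA arrays, and they share the Pou5f1 probe, which itself was lower there. For Nanog the log2 ratio was -1.44, -1.18 and -1.53 in BRG1 siRNA arrays, against -2.05, -2.11 and -2.20 in control arrays. The groups were apart and differed by 0.74, a 1.67-fold shift of Nanog against Pou5f1. The shift was 0.67 for Klf4, 0.48 for Klf5, 0.47 for Esrrb, 0.46 for Nr0b1 and 0.34 for Zfp42, and for these 6 factors the groups did not overlap (two-sided exact permutation test, p = 0.10 each, the smallest that 20 assignments can give; 0.15 after adjustment over 9 ratios). Klf2 (0.32), Sox2 (0.17) and Tbx3 (0.05) overlapped, with exact permutation p = 0.20, 0.20 and 0.80 (adjusted 0.225, 0.225 and 0.80). Single arrays set the size of these 3: Klf2 was 0.56 without control replicate 1 and 0.13 without control replicate 2, Sox2 was 0.09 without BRG1 siRNA replicate 2, and Tbx3 was 0.16 without BRG1 siRNA replicate 3 and -0.04 without BRG1 siRNA replicate 2. For Sox2 the ratio was -0.86, -0.58 and -0.78 in BRG1 siRNA arrays, against -0.84, -0.93 and -0.95 in control arrays. All 3 control arrays share the first slide with BRG1 siRNA replicate 1. For the 6 factors whose groups did not overlap, that array is thus above all 3 controls already, and the first slide is no further check.

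**Figure D3:**
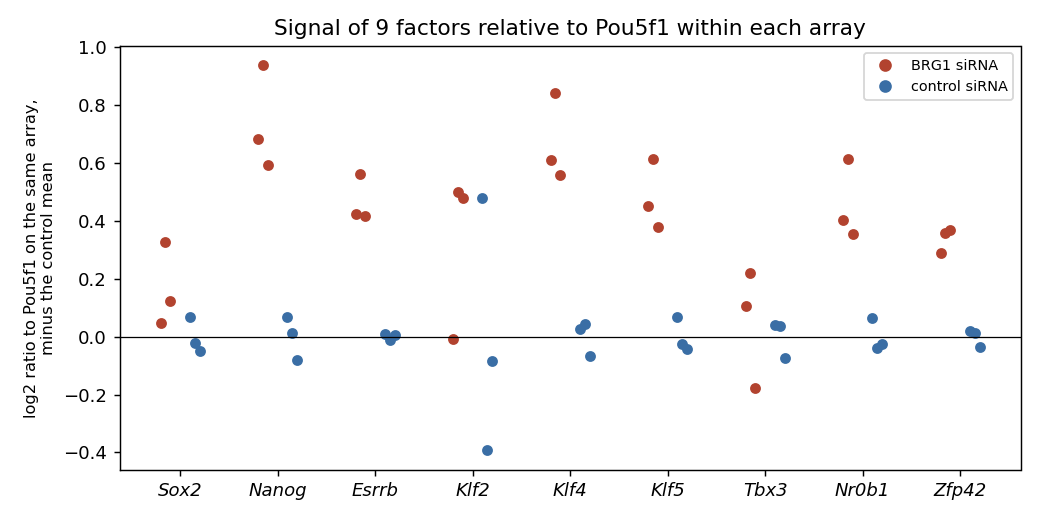
Log2 ratio of each of 9 factors to Pou5f1 on the same array, shifted so that the mean of the control arrays is 0; red points are BRG1 siRNA arrays and blue points control arrays, 3 each. Nanog and Klf4 show the widest gaps between groups, with shifts of 0.74 and 0.67, and Tbx3 straddles 0.

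Around the 10 factors, a list of other transcription factors and cofactors of the ES cell network had 32 tested genes, of which 8 rose and 2 fell, with a median change of 0.07 (all genes -0.04). The share called was 31.25%, against 21.3% of all genes by brightest probe (9.02% raised and 12.2% lowered). E2f1, a cell cycle factor, rose by 0.59 ± 0.06, with a level of 1.33 ± 0.09 in BRG1 siRNA arrays against 0.74 ± 0.03 in control arrays (log2, SE of the change and SD of the levels, n = 3 each; limma, adjusted p = 0.00392). Myc, a driver of cell growth, rose by 0.45 ± 0.08 (adjusted p = 0.0184), with 2 further probes called in the same direction. Utf1, a chromatin factor of pluripotent cells, rose by 0.43 ± 0.10 (adjusted p = 0.0332). Tcf7l1, the repressor that acts downstream of WNT, rose by 0.35 ± 0.06 on its brighter probe (adjusted p = 0.0179), while its other probe changed by -0.04 and was not called. Otx2, a factor of the primed epiblast, fell by 0.84 on the log2 scale, with a level of -1.01 ± 0.19 in BRG1 siRNA arrays against -0.17 ± 0.15 in control arrays (SD, n = 3 each; limma, adjusted p = 0.00947). Ctnnb1, beta-catenin, fell by 0.21 (limma, adjusted p = 0.0401), with neither of its other 2 probes called (-0.12 and 0.02). It was called in 0 of the 6 fits with 1 array left out, and not with the slide as a block (-0.14, adjusted p = 0.229). Prdm14 was not analysed here. The count of raised genes was 4, 2 and 1 without control replicates 1, 2 and 3, and 2, 2 and 9 without BRG1 siRNA replicates 1, 2 and 3; with the slide as a block it was 2 (E2f1 and Utf1) and on the first slide alone 0. The count of lowered genes was 1 (Otx2) in each of these 6 cases, and 0 with the slide as a block. Of the raised genes named, E2f1 was called in all 6 cases, Myc and Tcf7l1 in 2 and Utf1 in 1. Over all tested probes the share called was 11.2%, 10.1% and 6.32% without control replicates 1, 2 and 3. It was 9.70%, 9.10% and 21.7% without BRG1 siRNA replicates 1, 2 and 3, and 4.70% with the slide as a block.

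Genes that the core factors are known to act on, with other ES cell markers, split between directions: of 20 tested, 5 rose and 4 fell, with a median of 0.01. The share called was 45%, against 21.3% of all genes. Lefty1 and Lefty2, secreted inhibitors of Nodal, fell by 0.88 and 0.85 (log2; limma, adjusted p = 0.00181 and 0.00257). Nodal, the ligand that they inhibit, rose by 0.34 ± 0.06 (adjusted p = 0.0209). Morc1, a silencing factor of the germ line, rose by 0.57 ± 0.04 (adjusted p = 0.00231), and Jam2, a junction protein, by 0.44 ± 0.04 (adjusted p = 0.00333). Lin28a, the RNA-binding protein that blocks let-7 processing, rose by 0.34 ± 0.08 (adjusted p = 0.0313). Tex19.1, which acts on retrotransposons, fell by 0.30 and Pecam1, an adhesion molecule of ES cells, by 0.24 (adjusted p = 0.0121 and 0.0234). With the slide as a block, where the BRG1 siRNA side is replicate 1 alone, Lefty1, Lefty2, Morc1 and Jam2 were still called. Nodal (0.26, adjusted p = 0.142), Lin28a (0.40, adjusted p = 0.107), Tex19.1 (-0.34, adjusted p = 0.0633) and Pecam1 (-0.22, adjusted p = 0.141) were not. Without control replicate 2 or 3, or without BRG1 siRNA replicate 2, 2 genes of this list rose. The share of all tested probes called in these fits was 10.1%, 6.32% and 9.10%. Fgf4 and L1td1 were not analysed here.

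Relatives of the 10 factors by protein family gave 24 tested genes, of which 5 rose and 2 fell (median 0.09). The share called was 29.2%, against 21.3% of all genes. Sox15, a close relative of Sox2, rose by 0.56 ± 0.09 (limma, adjusted p = 0.0130). Among other Krüppel-like factors Klf9 rose by 0.31 (adjusted p = 0.0214), Klf13 by 0.28 (adjusted p = 0.0247; its other probe gave -0.46) and Klf16 by 0.27 (adjusted p = 0.0166). The Krüppel-like probes with the highest signal apart from the members, which does not rank the genes' expression, were those of Klf10, Klf6 and Klf9; Klf10 changed by 0.10 ± 0.05 (adjusted p = 0.202) and Klf6 by -0.01 ± 0.04 (adjusted p = 0.893). The POU genes Pou6f1 and Pou3f1 fell by 0.51 and 0.43 (adjusted p = 0.00981 and 0.0161). Pou6f1 cleared background on every control array and on 2 of 3 arrays with BRG1 siRNA, so it entered the test through the control arrays, where it was higher, and its fall is not independent of that filter. With the slide as a block, none of Sox15, Klf9, Klf13, Klf16, Pou6f1 and Pou3f1 passed, with adjusted p from 0.0710 to 0.159. The raised count was 2, 1 and 5 without BRG1 siRNA replicates 1, 2 and 3, and 3, 1 and 0 without control replicates 1, 2 and 3. Over all tested probes the share called in these fits was 9.70%, 9.10% and 21.7%, and 11.2%, 10.1% and 6.32%. Yy2 was not analysed here.

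Among markers of the primed epiblast, which follows the naive state in the embryo, 7 of 12 tested genes fell and 1, Nodal, rose, with a median change of -0.39. The share called was 66.7%, against 21.3% of all genes. Fgf5, the usual marker of that stage, fell by 1.36 on the log2 scale, to -1.08 ± 0.13 in BRG1 siRNA arrays against 0.27 ± 0.24 in control arrays (SD, n = 3 each; limma, adjusted p = 0.00383). Lef1, a WNT effector, fell by 1.02 (adjusted p = 0.00463) and Pim2, a kinase, by 0.75 (adjusted p = 0.00268). Otx2 and Pou3f1, given above, are on this list too. With the slide as a block 3 of the 12 fell, Fgf5, Lef1 and Pim2, where 4.70% of all tested probes were called. Nodal was not called without BRG1 siRNA replicate 2 or control replicate 2 or 3.

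Factors of lineages that the core factors are known to hold back gave 2 raised and 3 lowered of 16 tested, with a median of 0.02. The share called was 31.25%, against 21.3% of all genes. T (brachyury), a mesoderm factor, fell by 2.01 on the log2 scale, to -4.18 ± 0.03 in BRG1 siRNA arrays against -2.17 ± 0.30 in control arrays (SD, n = 3 each; limma, adjusted p = 0.00204). Cdx2, the trophectoderm factor that Oct4 represses, fell by 0.95 (adjusted p = 0.00187), and Eomes, of trophectoderm and mesendoderm, by 0.66 (adjusted p = 0.00400). Hand1, of trophoblast and mesoderm, rose by 0.79 ± 0.09 (limma, adjusted p = 0.00578). Its signal was low, at -3.65 ± 0.17 in BRG1 siRNA arrays against -4.45 ± 0.05 in control arrays (SD, n = 3 each). Tfap2c, of trophoblast and germ cells, rose by 0.30 ± 0.06 (limma, adjusted p = 0.0186). T, Cdx2, Eomes and Hand1 were still called with the slide as a block and with any 1 array left out, while Tfap2c was not called without BRG1 siRNA replicate 1 or 2 or control replicate 1 or 2.

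**Figure D4:**
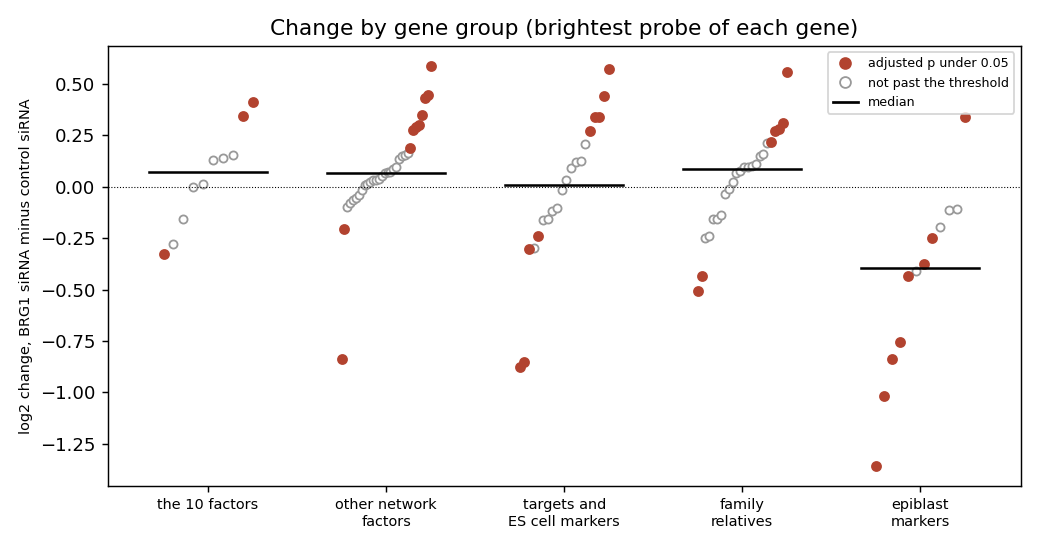
Change of every tested gene (brightest probe, BRG1 siRNA minus control siRNA, log2) in 5 groups of genes; filled points passed an adjusted p of 0.05 in limma and bars are medians. The medians are 0.07 for the 10 factors, 0.07 for other network factors, 0.01 for targets and ES cell markers, 0.09 for family relatives and -0.39 for epiblast markers.

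Markers of other cell types that an ES culture can hold were set beside these results. By list, 25% of primitive endoderm, 12.5% of neural, 46.2% of trophectoderm and 52.4% of fibroblast markers tested were called, against 21.3% of all genes. Primitive endoderm markers had 0 raised and 3 lowered of 12 tested (Dab2 -0.57, Lama1 -0.54 and Amn -0.21), and neural markers 0 raised and 1 lowered of 8 (Map2 -0.35). With the slide as a block none of these 4 was called (adjusted p = 0.150, 0.0890, 0.214 and 0.0680). Trophectoderm markers had 2 raised (Hand1 and Tfap2c) and 4 lowered of 13, with Krt7 at -0.79 and Krt19 at -0.74 besides Cdx2 and Eomes; the block left 1 raised and 4 lowered. Fibroblast markers, which stand for feeder cells, had 2 raised and 9 lowered of 21, with S100a4 at -1.09, Fbln1 at -0.84, Fn1 at -0.81 and Thy1 at -0.79, and with Mgp at 1.17 and Lox at 0.75; the block left 2 raised and 6 lowered. Without control replicate 3, 5 fibroblast markers and 0 primitive endoderm markers fell, and the primitive endoderm count was 1 without BRG1 siRNA replicate 2 or 3. Of all tested probes, 6.32% were called without control replicate 3, and 9.10% and 21.7% without BRG1 siRNA replicates 2 and 3. With the slide as a block the share was 4.70%. Among the 6 fits with 1 array left out, Map2 was called in 1, that without BRG1 siRNA replicate 3.

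Most markers of these types gave signal in both groups: 12 of 15 primitive endoderm markers (Gata6, Gata4 and Sox17 among them), 12 of 15 trophectoderm markers (with Cdx2 and Eomes), 20 of 22 fibroblast markers and 8 of 10 neural markers (with Sox1 and Pax6) were well above background on all 6 arrays. All 12 ES cell markers were as well, of which 3 rose and 1 fell (33.3% called, against 21.3% of all genes). That list shares Pou5f1, Sox2, Nanog and Zfp42 with the 10 factors. Its fall is that of Pou5f1 and its rises are those of Nanog, Utf1 and Lin28a, all given above. On no array well above background were Afp of the primitive endoderm list, Elf5 and Dlx3 of the trophectoderm list and Olig2 of the neural list. Signals summed over a list, in units of the 75th percentile, weigh each probe by its own brightness and rest on few probes. For primitive endoderm the sum was 14.0 to 16.9 in BRG1 siRNA arrays and 13.6 to 16.5 in control arrays, of which Sparc alone gave 81.1% to 86.1%. For trophectoderm it was 92.9 to 98.0 in BRG1 siRNA arrays and 82.9 to 95.4 in control arrays, with 82.2% to 85.5% from Krt18 and Krt8. For fibroblasts it was 88.3 to 88.7 in BRG1 siRNA arrays and 100.5 to 106 in control arrays, with 72.5% to 79.8% from Vim, Acta2 and Tagln. For neural markers it was 12.1 to 12.9 in BRG1 siRNA arrays and 12.5 to 12.8 in control arrays, with 91.9% to 92.8% from Tubb3 and Nes. The part of these other cells in the changes of the 10 factors was not tested.

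The genes most like the 3 core factors across the 6 arrays were taken by Pearson's r among 16943 genes well above background on every array, which describes 6 points that share 2 groups. Closest to Pou5f1 were Duoxa1, Erbin and Ube2e3, with r of 0.996, 0.995 and 0.993. Closest to Sox2 were Kcnk6, Btf3 and Mettl27, with r of 0.997, 0.996 and 0.993. Closest to Nanog were Cdan1, 1110011C06Rik and LOC666704, with r of 0.999, 0.998 and 0.998. These 9 were picked on the same 6 arrays, for factors whose groups were apart. A difference between the groups in the factor's direction is therefore built in, and no test of these 9 is given.

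The 3 called changes held their sign under 23 other ways of processing the arrays, but not always their call. Many of the 23 could not turn the sign. The settings for filters, replicate block, probe summary, variance model and outlier-flagged spots left the estimates of these 3 probes as they were. With groups that did not overlap, leaving out 1 array, array weights or slide as a fixed block could not turn it either. Nanog ran from 0.36 to 0.60 and was called in 15 of 23, and Klf4 ran from 0.31 to 0.54 and was called in 15. Pou5f1 ran from -0.37 to -0.13 and was called in 12. The deposited value table is among the 23 and held the same intensities, so it repeats the main fit. With slide as a fixed block, Nanog changed by 0.44 (adjusted p = 0.0884), Klf4 by 0.37 (adjusted p = 0.104) and Pou5f1 by -0.24 (adjusted p = 0.158). These estimates equal those of the first slide alone. With spike-in scaling Pou5f1 changed by -0.13 (adjusted p = 0.314), and Esrrb, Klf5 and Nr0b1 were called besides Nanog and Klf4. By brightest probe, Sox2 and Tbx3 were each called lowered in 3 of the 23. Esrrb was called raised in 3, Klf5 and Nr0b1 in 4 each, and Klf2 and Zfp42 were called in 0.

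**Figure D5:**
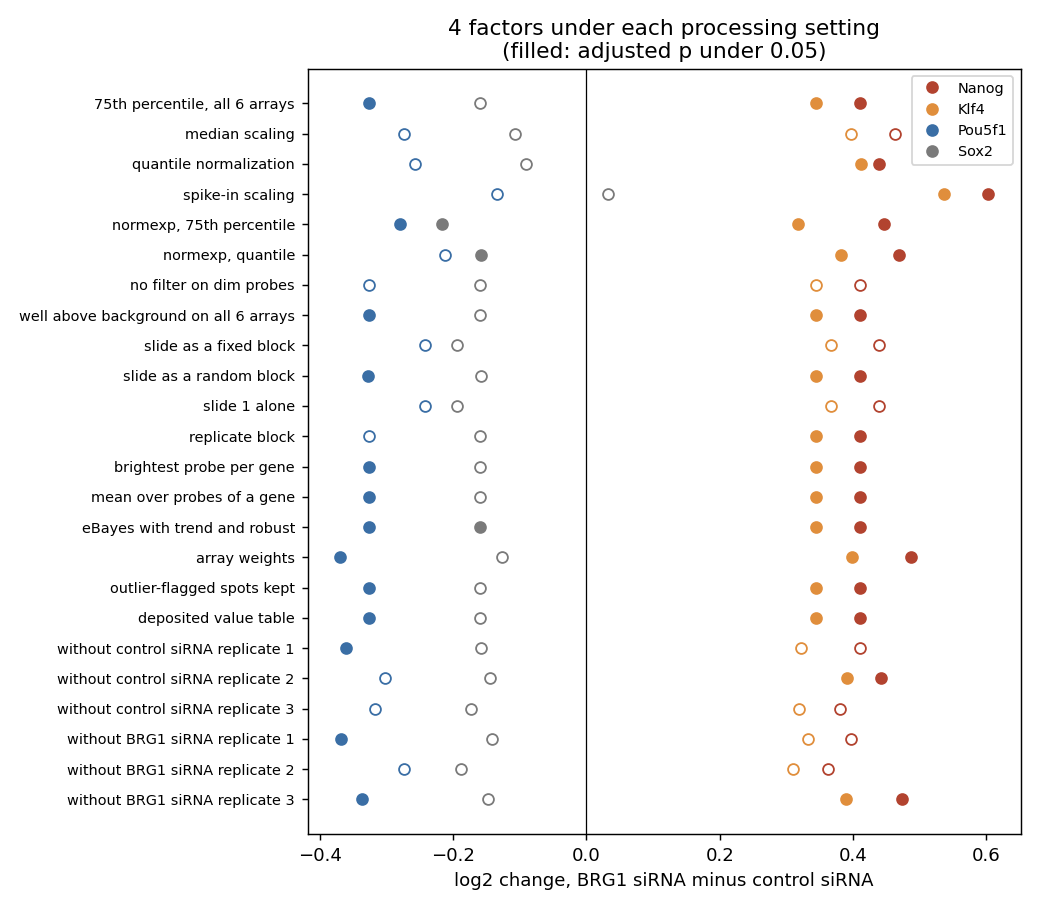
Log2 change, BRG1 siRNA minus control siRNA, of Nanog, Klf4, Pou5f1 and Sox2 (brightest probes) in the fit with all 6 arrays (top) and under 23 other settings; filled points passed an adjusted p of 0.05 in limma. Nanog and Klf4 stay right of 0 and Pou5f1 left of it in all 24 rows, and Sox2 crosses 0 with spike-in scaling. The row of the deposited value table repeats the top row, since the intensities are the same. Rows that change only the filter, replicate block, probe summary, variance model or outlier-flagged spots hold the same changes as the top row for these probes.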

How the data were processed

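Total RNA of mouse ES cells was profiled on 6 single-colour Agilent arrays, 3 with BRG1 siRNA and 3 with scrambled siRNA, grouped by the sample labels. Per the labels, Cy3 cRNA was made from 500 ng of RNA. The deposited intensity values are the processed signals of Agilent Feature Extraction, version 9.5 per the submitters' processing notes, background-subtracted and detrended within each array per the file headers and not normalized between arrays. The deposited value table held the same intensities.

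Processed signals were divided here by the 75th percentile over the array's non-control spots and taken to log2. Spots marked as outliers (387 on at least 1 array) were left out, and spots of a probe were averaged. A probe was tested if well above background on all arrays of at least 1 group and measured on 2 arrays per group. limma 3.58.1 (lmFit, eBayes) in R 4.3.3 compared the groups with a two-sided test at 0.05, Benjamini-Hochberg adjusted over all tested probes, and the procedure was tested on simulated data. A gene is described by its brightest probe. Names came from the annotation of the files, updated by accession for 22951 probes and by symbol for 6659, with 11564 kept as filed. Alternatives covered scaling, background correction, filters, slide, replicate block, probe summary, variance model and each array left out.

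The members and gene lists were chosen with earlier results of these data known. In each list, up to 4 called genes per direction with the largest change are named. Precision is limited by the number of arrays. Replicate numbers did not pair the arrays (correlations of deviations -0.29, 0.12 and 0.03).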

Additional observations from a re-analysis of the deposited data

How the results depend on the processing

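Among the 23 alternatives, the deposited value table held the same intensities and repeats the main fit. Nanog, Klf4 and Pou5f1 kept their sign in all 23 alternatives, and Smarca4 as well, with its brightest probe called in 21 of 23. Many of these alternatives leave the estimate unchanged or cannot turn the sign where the groups do not overlap. The brightest Smarca4 probe gave -0.54 with slide as a fixed block (limma, adjusted p = 0.0506). Its estimate on slide 1 alone is the same, since both set BRG1 siRNA replicate 1 against the control arrays. Probes called numbered 5152, against 2031 with median scaling, 1856 with no filter on dim probes, 1234 with slide as a fixed block, 0 on slide 1 alone (7713 at an unadjusted p under 0.05), 8928 with array weights, and 1659 to 5708 with 1 array left out. Of the probes of the 10 factors, 3 were called, against 0 with median scaling, no filter, slide as a fixed block or slide 1 alone (2, 5, 6 and 6 at an unadjusted p under 0.05), 5 with spike-in scaling or normexp with 75th percentile or quantile (7550, 5263 and 5903 of all probes called), 7 with trend and robust (6602 of all probes), 6 with array weights, and 0 to 6 with 1 array left out. Replicate numbers did not pair the arrays; with the replicate block 2146 probes were called, 2 of them of the factors (Nanog and Klf4), and Pou5f1 had an adjusted p of 0.0899. Spike-in scaling moved the median of all probes to 0.16, and 87.0% of called probes were then raised, against 43.8%.

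Signs turned where changes were small. With spike-in scaling Sox2 gave 0.0326, the dimmer probes of Esrrb, Klf5 and Klf2 gave 0.0895, 0.136 and 0.0228, the brighter Klf2 probe 0.190 and the dimmer Zfp42 probe 0.170. The brighter Klf2 probe also turned with median scaling (0.0505), quantile normalization (0.107), normexp with 75th percentile (0.0217) or quantile (0.128), slide as a random block (0.00172) and array weights (0.0404), and ran from -0.174 to 0.203 with 1 array left out. The dimmer Zfp42 probe turned with median scaling (0.0307), quantile normalization (0.0675), normexp with quantile (0.0733), and slide as a fixed block or slide 1 alone (0.0133), and ran from -0.0394 to 0.00550 with 1 array left out. The brighter Zfp42 probe turned with the mean over probes (-0.00476) and array weights (-0.0125), and ran from -0.0124 to 0.0540 with 1 array left out. Relative to Pou5f1, Esrrb gave 0.369, Zfp42 0.284 and Tbx3 -0.0668 with normexp, Zfp42 0.288 and Klf2 -0.00789 on slide 1 alone, and with 1 array left out Tbx3 gave -0.0364 to 0.162, Klf2 0.127 to 0.563 and Sox2 0.0865 to 0.226. The cause was not tested for any of these.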
